A study of Mus musculus with 36 samples.

Results

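The 10 genes described here encode heat shock proteins and their partners: Hspa1a, Hspa1b, Hspa8, Hsph1, Dnajb1, Dnaja1, Hsp90aa1, Fkbp4, Hspd1 and Hspe1. They were taken by name from the 34829 genes of a liver RNA-seq table. All 36 liver samples came from C57BL6/J mice, an inbred laboratory strain. Samples at 4, 12 and 24 h followed lipopolysaccharide (LPS), a bacterial surface molecule that triggers inflammation. Samples at 0 h stand for the state before LPS. The mice were housed at 22 °C, ordinary room temperature, or at 30 °C, near the range in which mice need little extra heat production. Livers were taken at 0 h (4 samples at 22 °C and 5 at 30 °C), 4 h (4 and 4), 12 h (5 and 4) and 24 h (5 and 5). No genetic change is named for any group, with age, sex and LPS dose not given in the sources used here. No group at 4, 12 or 24 h was labelled as free of LPS, so time of day, feeding and the injection cannot be told apart from LPS. Whether each sample is a separate animal is not stated, so the tests weigh differences against sample-to-sample spread, which may be partly technical.

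Heat shock proteins are molecular chaperones, which bind unfolded or partly folded proteins and use ATP to help them fold or to keep them from clumping. HSP70 proteins bind exposed stretches of a client with the help of J-domain co-chaperones, which deliver clients, and of exchange factors, which release them. HSP90 takes over late-stage clients such as the glucocorticoid receptor, a hormone receptor with many targets in liver, and HSP60 with HSP10 forms the folding chamber of mitochondria. Many of these genes are switched on by heat shock factors, which bind repeats of GAA and its complement TTC in promoters.

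The promoters show how far the genes share that element. RefSeq promoter windows (GRCm38.p6, 250 bases before to 50 after an annotated start) were matched by symbol for 8 of the 10 genes, in 13 windows. A match to either 8-letter arrangement of a unit and its complement, GAANNTTC or TTCNNGAA, was present in windows of 7 of these 8 genes, and none was found for Dnajb1. Each arrangement reads the same on both strands, and the arrangements can overlap. Such a match was present in 61.5% of the 13 windows and in 15.1% of all 32851 windows. A run of 3 alternating units, TTCNNGAANNTTC or GAANNTTCNNGAA, was present in windows of Hspd1, Hspe1 and Hsph1, which is 30.8% of the 13 windows, against 0.603% of all windows. These percentages count windows, and some windows hold the same sequence. A window of Hspd1 and that of Hspe1 hold the same run on opposite strands, and the windows of Hsph1 overlap. The windows of Hspa1a and Hspa1b hold the same 8-letter match. A match is a description of the letters and not a bound site. The stretches below hold the longest run of matches of genes whose levels are followed in the results, on the strand of the gene, with the matched letters in capitals.
Hspa1b, chr17:34959299-34959418, minus strand, 180 to 61 bases before the start: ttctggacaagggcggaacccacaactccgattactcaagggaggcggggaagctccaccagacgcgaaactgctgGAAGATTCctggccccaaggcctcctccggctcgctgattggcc
Hspe1, chr1:55088053-55088082, plus strand, 95 to 66 bases before the start: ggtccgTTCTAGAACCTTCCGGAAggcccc
Hsph1, chr5:149636287-149636316, minus strand, 20 to 49 bases after the start: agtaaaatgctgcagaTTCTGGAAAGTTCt
Fkbp4, chr6:128438789-128438818, minus strand, 162 to 133 bases before the start: ccgcttctctaGAAAGTTCtccgctcccgc
Dnaja1, chr4:40722333-40722362, plus strand, 135 to 106 bases before the start: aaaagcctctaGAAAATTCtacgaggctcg
The same 120 bases as in Hspa1b lie before Hspa1a at chr17:34972217-34972336, and the 250 bases before the starts of these neighbours differ at 3 positions. The Hspe1 stretch also lies before the second annotated start of Hspd1, which is read in the opposite direction. In the GENCODE annotation the Hspa1b stretch overlaps no exon, the Hspe1 stretch lies in an exon of Hspd1 and the Hsph1 stretch in an exon of Hsph1. The Fkbp4 stretch lies in an exon of Gm10069, and the Dnaja1 stretch in annotated exons of Dnaja1 and Gm6297.

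Levels are given as signal, the value that the authors deposited as scaled reads per base. The 36 libraries held 557000 to 2744000 estimated reads, and 3 reads were worth 1.33 to 5.05 units of signal, a limit that covers counting error only. For this, 1 read was taken as the commonest low value of each library. Most values of Hspa1a and Hspa1b were whole multiples of it. The worth of a read can differ between genes, so the limit for other genes and the depths are approximate. At 24 h the libraries held 856000 ± 58000 reads at 22 °C and, with a wider range, 1425000 ± 600000 at 30 °C (SD, n = 5 each). The summed signal of 9 hepatocyte genes lay between 30240 and 67820 in every library, as a check of the labelled tissue. The library of 30 °C, 4 h, replicate 4 had a summed signal of 1717984 against 828054 to 1362724 in the others, and leaving it out changed no call on the 9 tested genes. In bulk liver, fewer cells of a type and less RNA per cell cannot be told apart.

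The main pattern is a rise of Hspa1b and Hspa8 at 4 h at both temperatures, a fall of most of the genes from 4 to 12 h, and a temperature difference at 24 h. A gene was tested when its mean signal was at least 5, which 8702 genes and 9 of the 10 chaperone genes met; Hspa1a, at a mean of 1.23, did not. Differences are on the log2(signal + 1) scale ± SE from limma, with p-values adjusted over all tested genes and a threshold of 0.05. At 24 h, 4 of the 9 were higher at 30 °C than at 22 °C, namely Hspa1b, Hsph1, Fkbp4 and Hspe1, and none was lower, where 9.93% of all tested genes were higher and 8.71% lower. The change since 0 h also differed between the temperatures for those 4 genes at 24 h, against 5.07% of all tested genes with a positive difference. No tested chaperone gene differed between temperatures at 0, 4 or 12 h by limma, where 0.506%, 0.207% and 4.26% of all tested genes did. At an unadjusted p under 0.05 the numbers among the 9 were 3, 0 and 2.

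**Figure D1:**
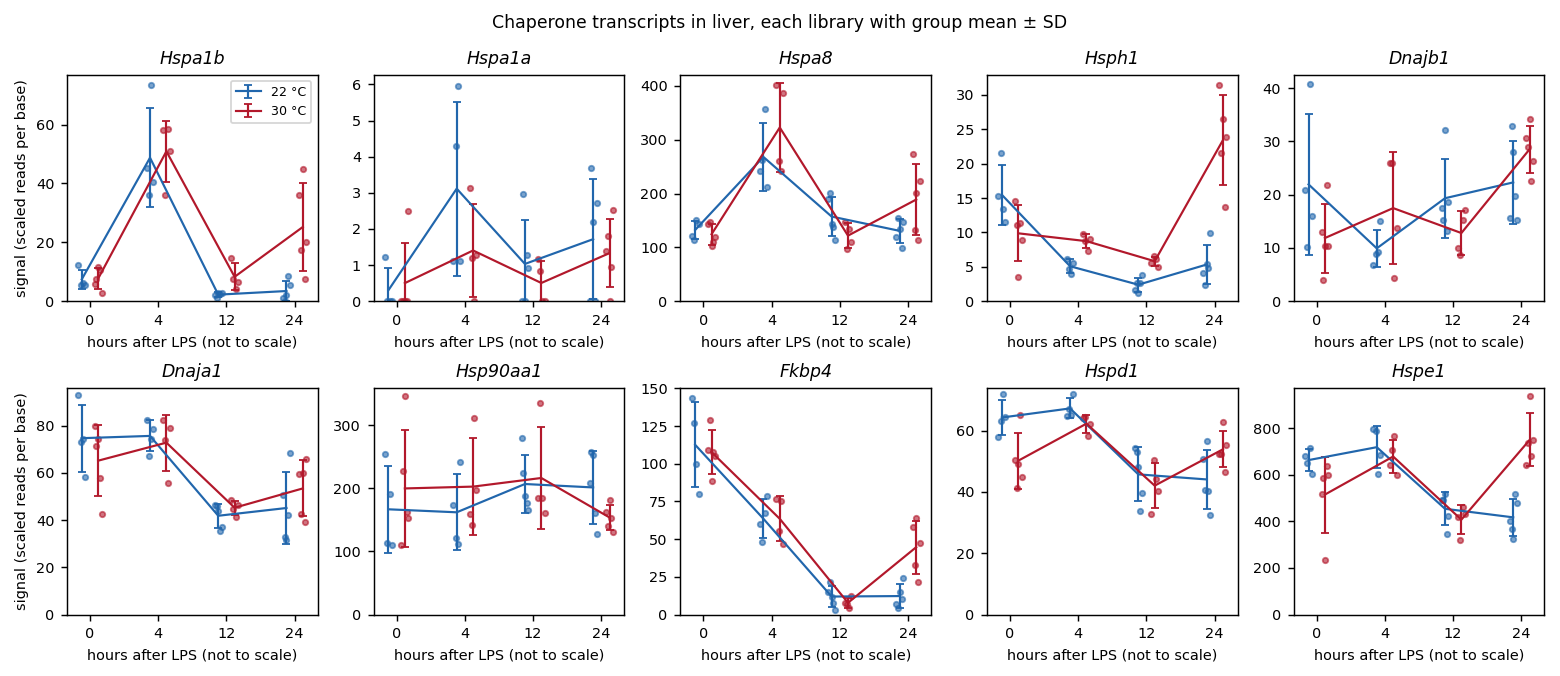
Signal (scaled reads per base, linear axes from 0) of the 10 chaperone genes against hours after LPS (not to scale), with 1 point per library and lines joining group means ± SD, blue for 22 °C and red for 30 °C. The Hspa1b panel peaks at 4 h at both temperatures, and in the Hsph1 panel all 30 °C points at 24 h, 13.7 to 31.4, lie above all 22 °C points, 2.30 to 9.85.

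Hspa1b (ENSMUSG00000090877, chr17:34956436-34959238, minus strand, GRCm38) encodes an inducible HSP70 that is scarce in unstressed tissue. At 0 h its signal was 12.3, 5.51, 6.36 and 5.67 in the 4 libraries at 22 °C, and 5.75, 7.61, 11.8, 10.5 and 2.84 in the 5 at 30 °C. At 4 h it was 45.2, 36.04, 73.4 and 40.4 at 22 °C, and 58.1, 36.1, 58.5 and 51.0 at 30 °C. Every 4 h library lay above every 0 h library of its temperature, and the temperatures overlapped at 4 h. The rise had an adjusted p of 0.000166 at 22 °C (log2 difference 2.57 ± 0.51) and 4.13e-05 at 30 °C (2.67 ± 0.48).

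By 12 h the 5 libraries at 22 °C held 2.05, 0.989, 2.84, 2.57 and 2.73 units of Hspa1b signal, with 2 of the 5 under 3 reads. The 4 at 30 °C held 14.7, 7.63, 4.13 and 6.69. At 24 h the 22 °C libraries gave 1.17, 0, 2.19, 8.58 and 5.42, with 3 of the 5 under 3 reads, and the 30 °C libraries gave 36.02, 17.4, 44.9, 7.67 and 20.1. The groups overlapped at 24 h through the 30 °C library at 7.67, while at 12 h they did not. At 24 h the mean was 25.2 ± 15.0 at 30 °C against 3.47 ± 3.49 at 22 °C (SD, n = 5 each), a ratio of 7.27. The log2 difference was 2.74 ± 0.46 (limma adjusted p = 4.49e-05), and the change since 0 h differed between temperatures by 2.76 ± 0.67 (adjusted p = 0.00708). With 5 added to the signal in place of 1, these values were 1.77 and 1.76, both still past the threshold. At 12 h the log2 difference of 1.44 ± 0.48 missed the threshold (adjusted p = 0.0871). At 22 °C the level was below that of 0 h at 12 h (-1.36 ± 0.48, adjusted p = 0.0236) and at 24 h (-1.27 ± 0.48, adjusted p = 0.0381). Both falls were lost when Hspa1a and Hspa1b were summed (adjusted p = 0.0532 and 0.261). The 12 h fall was also lost without the 0 h replicate 1 or the 12 h replicate 2 (adjusted p = 0.0629 to 0.0928), and the 24 h fall without the 0 h replicate 1 or 3 or the 24 h replicate 1, 2 or 3 (0.0569 to 0.168). At 30 °C the gene was again above its 0 h level at 24 h (1.49 ± 0.46, adjusted p = 0.0126), a call that was lost without the 24 h replicate 3 (adjusted p = 0.0512).

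Hspa1a (ENSMUSG00000091971, chr17:34969190-34972156, minus strand) is the near-identical neighbour of Hspa1b and encodes almost the same protein. It was above 0 in 21 of the 36 libraries and reached 3 reads in 7. Its highest values, 5.95 and 4.29, were both at 22 °C, 4 h. It made up 6.33% of the signal of the pair over all libraries, but 31.6% and 33.1% at 22 °C, 12 and 24 h, against 2.69% to 6.12% in the other groups. At 22 °C, 12 h, and at 22 °C, 24 h, 4 of the 5 libraries were under 3 reads of Hspa1a, so these shares rest on few reads. How shared reads were divided between the copies is uncertain. The sum of both genes does not depend on that division. At 4 h the sum was above 0 h by 2.62 ± 0.43 at 22 °C (limma adjusted p = 9.72e-06) and by 2.57 ± 0.41 at 30 °C (adjusted p = 5.07e-06). At 24 h it was 1.17, 3.69, 4.38, 8.57 and 8.12 at 22 °C and 37.4, 19.3, 44.9, 8.62 and 22.6 at 30 °C. Here the lowest 30 °C library lay just above the highest 22 °C library. The difference was 2.15 ± 0.38 (limma adjusted p = 0.000118), and the difference in change since 0 h was 2.05 ± 0.56 (adjusted p = 0.0173).

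Hspa8 (ENSMUSG00000015656, chr9:40800984-40810087, plus strand) encodes the constitutive HSP70 that serves ordinary protein folding. At 22 °C its signal went from 122, 114, 151 and 143 at 0 h to 241, 262, 358 and 211 at 4 h. At 30 °C it went from 143, 147, 103, 111 and 119 to 401, 260, 243 and 388. In neither temperature did the 0 h and 4 h libraries overlap, and the difference was 0.99 ± 0.23 at 22 °C (limma adjusted p = 0.00109) and 1.34 ± 0.22 at 30 °C (adjusted p = 8.61e-06). The 2 high libraries at 30 °C, 4 h, were also the deepest, at 2744000 and 2668000 reads against 1033000 and 1034000 in the others. Over all 36 libraries the log2 signal of Hspa8 followed log2 depth with r = 0.683, and within groups with r = 0.385; the part of depth in the rise was not tested. At 12 h the groups were back at 157 ± 37.0 (22 °C, n = 5) and 122 ± 23.0 (30 °C, n = 4). At 24 h, Hspa8 was above its 0 h level at 30 °C only just past the threshold (0.54 ± 0.21, adjusted p = 0.0479), and the call was lost without any of the 0 h replicates 3, 4 and 5 or the 24 h replicates 1, 3 and 5 (0.0773 to 0.173). At 24 h it did not pass between temperatures (0.47 ± 0.21, adjusted p = 0.112); it did without the 30 °C replicate 4 (adjusted p = 0.0293).

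Hsph1 (ENSMUSG00000029657, chr5:149614287-149636376, minus strand) encodes HSP105, an HSP110 protein that acts as an exchange factor of HSP70. It did not rise at 4 h. At 22 °C the libraries held 15.4, 21.6, 13.5 and 11.5 at 0 h and 6.19, 4.64, 3.92 and 5.602 at 4 h, a fall without overlap (-1.42 ± 0.34, limma adjusted p = 0.00156). At 30 °C they held 14.5, 11.1, 3.50, 11.4 and 8.87 at 0 h and 9.78, 8.77, 7.28 and 9.11 at 4 h, with overlap (-0.05 ± 0.32, adjusted p = 0.916). The 4 h difference between these changes was not past the threshold (1.36 ± 0.47, adjusted p = 0.492).

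Lower levels of Hsph1 followed at 12 h, 1.704, 2.67, 1.18, 2.67 and 3.78 at 22 °C, and 5.51, 6.52, 6.19 and 5.04 at 30 °C. Those at 22 °C were 1.25 to 4.16 times the value taken as 1 read, and not whole multiples of it. The limit of 3 reads therefore does not count reads of Hsph1. The 30 °C libraries all lay above the 22 °C libraries (1.05 ± 0.32, limma adjusted p = 0.0581). That difference passed without the 22 °C, 12 h, replicate 5 (adjusted p = 0.0292). At 24 h Hsph1 was 4.12, 2.30, 5.47, 4.90 and 9.85 at 22 °C and 31.4, 21.5, 26.5, 13.7 and 23.8 at 30 °C. No 22 °C library reached the lowest 30 °C library. The ratio of the means was 4.39 (23.4 ± 6.54 against 5.33 ± 2.80, SD, n = 5 each), with a log2 difference of 2.01 ± 0.31 (limma adjusted p = 1.31e-05). Since 0 h the gene had fallen by 1.45 ± 0.32 at 22 °C (adjusted p = 0.000536) and risen by 1.23 ± 0.31 at 30 °C (adjusted p = 0.00223). The difference between those changes was 2.68 ± 0.45 (adjusted p = 0.000182).

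Neither of the J-domain genes Dnajb1 and Dnaja1 passed the threshold between temperatures at 24 h. Dnajb1 (ENSMUSG00000005483, chr8:83608193-83612653, plus strand) encodes the HSP40 that pairs with inducible HSP70. At 24 h it was 15.5, 32.8, 28.1, 19.8 and 15.3 at 22 °C and 30.6, 29.0, 34.2, 22.6 and 26.3 at 30 °C, which overlapped (0.39 ± 0.39, limma adjusted p = 0.53). At 30 °C the 0 h libraries had held 13.0, 3.90, 10.4, 21.8 and 10.3, all below every 24 h library, and the rise was 1.35 ± 0.39 (adjusted p = 0.00780). At 22 °C the spread at 0 h was wide, from 10.2 to 40.7, and the 24 h change was 0.13 ± 0.41 (adjusted p = 0.844). The test of the difference between those changes gave 1.22 ± 0.57 (adjusted p = 0.19).

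Dnaja1 (ENSMUSG00000028410, chr4:40722150-40737149, plus strand) encodes a J-domain protein of the cytosol that also assists nuclear receptors. It was 93.0, 73.3, 74.3 and 58.5 at 0 h and 46.5, 46.1, 44.1, 35.5 and 37.2 at 12 h at 22 °C, with no overlap (-0.81 ± 0.20, limma adjusted p = 0.00162). At 30 °C the 12 h libraries held 48.4, 44.8, 41.3 and 46.6 against 42.6 to 79.9 at 0 h (-0.49 ± 0.20, adjusted p = 0.0580). At 30 °C the change passed without the 0 h replicate 5, the lowest library (adjusted p = 0.0143). At 24 h the 22 °C level was still below that of 0 h (-0.75 ± 0.20, adjusted p = 0.00356), and the temperatures overlapped, 31.8 to 68.3 at 22 °C and 39.1 to 66.0 at 30 °C.

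Hsp90aa1 (ENSMUSG00000021270, chr12:110690605-110702728, minus strand), the inducible cytosolic HSP90, passed the threshold in none of the 17 contrasts. Group means ran from 154 ± 19.9 at 30 °C, 24 h, to 217 ± 80.2 at 30 °C, 12 h (SD, n = 5 and 4). Single libraries ranged from 110 to 347, and both ends of that range were found at 0 h, at 22 °C and 30 °C. The largest log2 difference among the temperature comparisons was -0.35 ± 0.28 at 24 h (limma adjusted p = 0.433), so a difference was not detectable against this spread.

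Fkbp4 (ENSMUSG00000030357, chr6:128429735-128438677, minus strand) encodes FKBP52, an immunophilin that binds HSP90 and promotes the transport and hormone binding of steroid receptors. It had the deepest fall since 0 h of the 9 tested genes. At 22 °C it was 143, 127, 99.6 and 80.2 at 0 h, 59.8, 48.3, 67.4 and 78.7 at 4 h, and 15.2, 21.7, 11.7, 7.95 and 3.13 at 12 h. At 30 °C it was 109, 129, 88.3, 108 and 105 at 0 h, 76.8, 55.5, 75.2 and 46.7 at 4 h, and 7.42, 7.00, 4.54 and 12.2 at 12 h. The 0 h libraries lay above the 4 h libraries and these above the 12 h libraries at each temperature. The 4 h change did not pass (-0.80 ± 0.41 and -0.77 ± 0.39, limma adjusted p = 0.142 and 0.126), although it did at both temperatures in a fit of the groups alone (0.0210 and 0.0144). The 12 h fall passed, by 3.31 ± 0.39 and 3.69 ± 0.39 on the log2 scale (adjusted p = 1.77e-08 and 1.45e-09).

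From 12 to 24 h the Fkbp4 step is given for each temperature, and the difference between the steps was not tested. At 22 °C the 24 h libraries held 6.83, 4.30, 15.1, 10.5 and 24.6, overlapping those of 12 h (0.04 ± 0.36, limma adjusted p = 0.969). At 30 °C they held 58.1, 33.0, 63.7, 21.5 and 47.3, all above those of 12 h (2.35 ± 0.39, adjusted p = 2.58e-05) and all below those of 0 h (-1.34 ± 0.36, adjusted p = 0.00486). Between temperatures the highest 22 °C library, 24.6, passed the lowest 30 °C library, 21.5. The ratio of the means was 3.65 (44.7 ± 17.5 against 12.3 ± 7.99, SD, n = 5 each), with a log2 difference of 1.90 ± 0.36 (adjusted p = 0.000279) and a difference in change since 0 h of 1.94 ± 0.53 (adjusted p = 0.0178).

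The mitochondrial chaperonin genes Hspd1 (ENSMUSG00000025980, chr1:55077835-55088243, minus strand), for HSP60, and Hspe1 (ENSMUSG00000073676, chr1:55088132-55091307, plus strand), for its lid HSP10, lie head to head. Both fell at 22 °C by 12 h and were still below 0 h at 24 h. Hspe1 was 681, 652, 716 and 601 at 0 h and 400.0, 365, 324, 518 and 477 at 24 h, without overlap (-0.69 ± 0.20, limma adjusted p = 0.00596). At 30 °C it was 517, 584, 234, 639 and 598 at 0 h and 642, 736, 937, 681 and 748 at 24 h, also without overlap but higher (0.61 ± 0.19, adjusted p = 0.0119). That rise was lost without the 0 h replicate 3, the library at 234 (adjusted p = 0.0737). At 24 h every 30 °C library lay above every 22 °C library, with a ratio of the means of 1.80 (749 ± 114 against 417 ± 80.0, SD, n = 5 each). The log2 difference was 0.85 ± 0.19 (adjusted p = 0.00116), and the difference in change since 0 h was 1.30 ± 0.27 (adjusted p = 0.00206).

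Hspd1 was 57.8, 63.1, 71.9 and 64.3 at 0 h and 50.6, 40.5, 56.6, 40.2 and 32.5 at 24 h at 22 °C, a fall without overlap (-0.56 ± 0.17, limma adjusted p = 0.00786). At 30 °C it was 50.3, 41.2, 49.3, 65.2 and 44.8 at 0 h and 52.3, 52.4, 62.9, 46.6 and 55.2 at 24 h, with overlap (0.11 ± 0.16, adjusted p = 0.637). Its temperature difference at 24 h was 0.30 ± 0.16 (adjusted p = 0.186). The difference in change since 0 h, 0.67 ± 0.23, had an adjusted p of 0.0596 and passed without the 30 °C, 0 h, replicate 4, the 22 °C, 24 h, replicate 3 or the 30 °C, 24 h, replicate 4 (0.0309 to 0.0479). At 12 h the falls at 22 °C of Hspe1 (-0.56 ± 0.20, adjusted p = 0.0222) and Hspd1 (-0.50 ± 0.17, adjusted p = 0.0150) were each lost without the 0 h replicate 3 or the 12 h replicate 4 (0.0523 to 0.0718). Reads of Hspa8, Hspd1 and Hspe1 can also match processed pseudogenes, so their levels are uncertain to that extent.

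**Figure D2:**
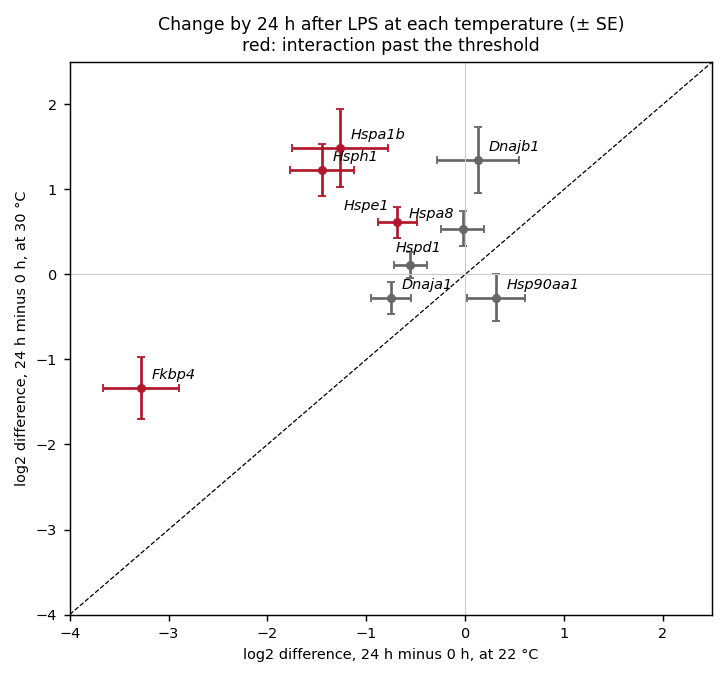
Log2 difference between 24 h and 0 h at 22 °C (x axis) and 30 °C (y axis) for the 9 tested chaperone genes, on the log2(signal + 1) scale, with bars of 1 SE and a dashed line where both are equal. Hspa1b, Hsph1, Hspe1 and Fkbp4, in red, are those whose changes differed between temperatures past the threshold, and all 4 lie above the line.

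Read by time, the counts were as follows. At 4 h, 2 of the 9 were higher and 1 lower at 22 °C, where 15.8% of all tested genes were higher and 13.6% lower, and 2 were higher at 30 °C, where 17.8% were. At 12 h, 6 of the 9 were below 0 h at 22 °C, against 20.6% of all tested genes, and only Fkbp4 was at 30 °C, against 18.9%. At 30 °C, Hsph1 (adjusted p = 0.0262) and Hspe1 (adjusted p = 0.00551) also passed by limma without the 0 h replicate 3, and Dnaja1 without the 0 h replicate 5 (adjusted p = 0.0143). In the test of the difference between the temperatures in change from 0 to 12 h (limma interaction), none of the 9 passed, as against 24 of all 8702 tested genes. The nearest was Hsph1 (1.73 ± 0.46, adjusted p = 0.0878), which passed in some other settings. At 24 h the 6 below 0 h at 22 °C were Hspa1b, Hsph1, Hspe1, Hspd1, Dnaja1 and Fkbp4, the genes that were below at 12 h, against a background of 18.0%. At 30 °C, 5 were above 0 h, namely Hspa1b, Hspa8, Hsph1, Hspe1 and Dnajb1, against 15.3% of all tested genes, and Fkbp4 was below, against 14.4%. The median change of the 9 since 0 h at 24 h was -0.69 at 22 °C and 0.54 at 30 °C, beside 0.03 and -0.03 over all tested genes. The comparisons with 0 h at a given temperature share their 0 h libraries. The summed signal of cell type markers also differed between these times. From 0 to 12 h the median summed signal of 13 neutrophil and monocyte genes went from 93.1 to 4306 at 22 °C and from 108 to 4482 at 30 °C. That of 12 Kupffer cell and macrophage genes went from 316 to 90.5 and from 321 to 105, and that of 10 liver sinusoidal endothelial genes from 430.0 to 253.5 and from 442.5 to 228. At 4 h these medians were 2350 and 2058, 165 and 178.5, and 208 and 221, in the same order, and at 24 h 5114 and 4087, 96.5 and 167, and 215 and 306. Such a sum follows its most abundant genes and does not show which cells made the transcripts. The neutrophil and monocyte list includes Lcn2, and 7 of its 13 genes had a mean signal high enough to be tested. The part of these cell types in the changes since 0 h was not tested.

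The steps between successive times were counted in the same way, and the difference between a step at 22 °C and at 30 °C was not tested. From 4 to 12 h, 7 of the 9 fell at 22 °C (14.4% of all tested genes fell) and 6 at 30 °C (17.9%). From 12 to 24 h none of the 9 passed at 22 °C by limma, where 10.6% of all tested genes did in either direction and 1 of the 9, Hsph1, had an unadjusted p under 0.05. Hsph1 passed there without the 12 h replicate 5 or the 24 h replicate 2 (adjusted p = 0.0244 to 0.0405). At 30 °C, 5 of the 9 rose from 12 to 24 h, against 11.6% of all tested genes. These were Fkbp4, Hsph1 (1.80 ± 0.32, adjusted p = 9.43e-05), Hspe1 (0.88 ± 0.20, adjusted p = 0.00124), Hspa1b (1.39 ± 0.48, adjusted p = 0.0373) and Dnajb1 (1.13 ± 0.41, adjusted p = 0.0460). The Hspa1b step was lost without any of the 30 °C, 12 h, replicates 2, 3 and 4 or the 24 h replicates 1, 3 and 5 (0.0564 to 0.134). The Dnajb1 step was lost without any of the 12 h replicates 1, 2 and 3 or the 24 h replicates 1, 2, 3 and 5 (0.0577 to 0.141). From 4 to 12 h, Hsph1 at 22 °C was lost without any of 6 libraries (the 4 h replicates 1, 2 and 4 and the 12 h replicates 1, 3 and 4; 0.0523 to 0.119), and Hspa8 at 22 °C without the 4 h replicate 3 (0.0531). In the same step at 30 °C, Hspd1 was lost without the 12 h replicate 1 (0.0629) and Dnaja1 without the 4 h replicate 1 (0.0565). Upper-quartile rescaling of the libraries ended the calls of Hspe1 (adjusted p = 0.0986), Hspd1 (0.165) and Dnaja1 (0.141) in that step at 30 °C, and that of Hspe1 at 22 °C (0.0547). The Hsph1 step at 22 °C was lost under that rescaling, with a pseudocount of 5, with no filter and in a fit of the groups alone (0.0755 to 0.118).

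**Figure D3:**
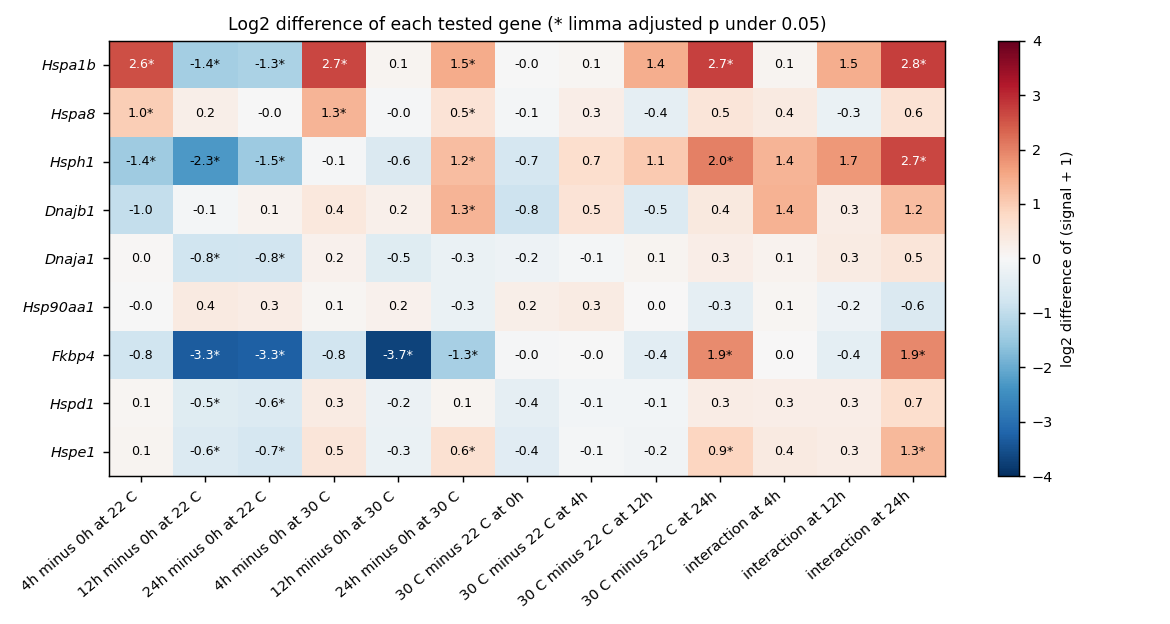
Log2 difference of (signal + 1) for each of the 9 tested chaperone genes (rows) in 13 of the contrasts (columns), red for higher and blue for lower, with an asterisk where the limma adjusted p is under 0.05. In the 24 h temperature column the asterisks stand at Hspa1b, Hsph1, Fkbp4 and Hspe1, and the columns for 0, 4 and 12 h have none.

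Markers of other cell types also differed between the temperatures at 24 h. Over all tested genes 9.93% were higher at 30 °C and 8.71% lower. Of 9 tested liver sinusoidal endothelial genes, 5 were higher at 30 °C and none lower (median log2 difference 0.98). Of 11 tested Kupffer cell and macrophage genes 2 were higher and none lower, and of 4 tested erythroid genes 2 were lower and none higher. The ranges of the summed signals overlapped. The summed signal of 13 neutrophil and monocyte genes was 4855 to 6106 at 22 °C and 2989 to 5977 at 30 °C, and that of 12 Kupffer cell and macrophage genes 56.7 to 178 and 141 to 178. For 10 liver sinusoidal endothelial genes it was 177 to 323 and 288 to 361, with Clec4g listed at 0 in every 22 °C library. For 6 erythroid genes it was 481.6 to 1267 and 261.9 to 626.3. The 9 hepatocyte genes summed to 56480 to 67820 at 22 °C and 55880 to 64010 at 30 °C. Of these 9, all tested, 2 were higher at 30 °C and none lower. Of 7 tested hepatic stellate genes 2 were higher and none lower, and of 7 tested neutrophil and monocyte genes none differed. The part of these cells, or of the difference in depth, in the 24 h results was not tested. Over all 36 libraries, log2 depth and log2 signal correlated by 0.44 for Hspa1b, 0.08 for Hsph1, 0.35 for Hspe1 and -0.02 for Fkbp4. Within groups the values were -0.08, 0.17, 0.05 and 0.03. A correlation within groups does not cover the depth difference between groups.

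Lists of further chaperone genes were counted in the same fit. Of 16 tested chaperones and folding enzymes of the endoplasmic reticulum, 13 rose by 24 h at 22 °C and 13 at 30 °C, and none fell, beside 19.0% and 15.3% of all tested genes that rose. Hspa5, the HSP70 of that compartment, rose by 2.02 ± 0.23 at 22 °C (limma adjusted p = 9.32e-09) and 1.45 ± 0.22 at 30 °C (adjusted p = 2.39e-06). At 24 h it was lower at 30 °C than at 22 °C (-1.04 ± 0.22, adjusted p = 0.000676), with group means of 536 and 1166. Creld2 (-1.03 ± 0.34, adjusted p = 0.0291) and Manf (-0.68 ± 0.23, adjusted p = 0.0327), a secreted factor of the unfolded protein response, were lower too. In all, 3 of the 16 were lower at 30 °C, beside 8.71% of all tested genes. Another 2 were higher, beside 9.93%, among them the J-domain gene Dnajc3 (0.40 ± 0.11, adjusted p = 0.0131).

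Of 13 tested genes of the HSP70 family and its exchange factors, the 22 °C samples had 2 higher and 3 lower at 4 h, and the 30 °C samples 4 higher and 2 lower. Over all tested genes 15.8% were higher and 13.6% lower at 22 °C, and 17.8% and 14.6% at 30 °C. Bag3, a stress-induced exchange factor, rose at both temperatures at 4 h, by 2.37 ± 0.32 (limma adjusted p = 3.19e-07) and 2.44 ± 0.30 (adjusted p = 5.61e-08), and the mitochondrial exchange factor Grpel2 fell by 2.35 ± 0.31 and 1.71 ± 0.30 (adjusted p = 3.03e-07 and 2.35e-05). At 24 h Hspa5, which is on this list as well, was the 1 gene of the 13 that differed between temperatures, where 9.93% of all tested genes were higher and 8.71% lower. Of 19 tested J-domain genes, 5 rose and 3 fell at 4 h at each temperature, beside the 4 h shares of all genes just given, with Dnajb9, a J-domain protein of the endoplasmic reticulum, at 2.26 ± 0.26 and 2.62 ± 0.25 (adjusted p = 2.03e-08 and 2.34e-10). Between temperatures at 24 h, 4 of the 19 J-domain genes were higher at 30 °C, beside 9.93% of all tested genes, and 1 was lower, beside 8.71%, Dnajc5 (-1.01 ± 0.21, adjusted p = 0.000791).

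Of 15 tested genes of the HSP90 family and its partners, the 22 °C samples had 2 higher and 3 lower by 24 h, and the 30 °C samples 4 higher and 2 lower. Over all tested genes 19.0% were higher and 18.0% lower at 22 °C, and 15.3% and 14.4% at 30 °C. Hsp90ab1, the constitutive cytosolic HSP90, fell by 1.56 ± 0.28 and 1.54 ± 0.26 (limma adjusted p = 3.16e-05 and 2.27e-05), whereas its inducible partner gene Hsp90aa1 passed in neither. Fkbp5 encodes FKBP51, the immunophilin that competes with FKBP52 for HSP90. It rose by 24 h at 22 °C by 2.64 ± 0.34 (adjusted p = 9.45e-08), where Fkbp4 fell by 3.28 ± 0.39 (adjusted p = 2.10e-08). At 30 °C Fkbp5 rose as well, by 1.14 ± 0.32 (adjusted p = 0.0061). Its change since 0 h was smaller at 30 °C (-1.50 ± 0.46, adjusted p = 0.0356), opposite in sign to the same difference for Fkbp4. The temperature difference of Fkbp5 itself did not pass at 24 h (-0.86 ± 0.32, adjusted p = 0.0550) or at 0 h (0.64 ± 0.34, adjusted p = 0.546). St13, which links HSP70 to HSP90, was the 1 gene of this list that differed between temperatures at 24 h (0.69 ± 0.20 higher at 30 °C, adjusted p = 0.0157), beside 9.93% of all tested genes higher and 8.71% lower.

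Among 13 tested genes of the cytosolic chaperonin and prefoldin, none differed between temperatures at 24 h, where 9.93% of all tested genes were higher and 8.71% lower. By 24 h, 2 had risen and 2 had fallen at 22 °C, beside 19.0% and 18.0% of all tested genes. At 30 °C, 1 had risen and 1 had fallen, beside 15.3% and 14.4%. Tcp1, a subunit of the cytosolic chaperonin, was among those that fell, by 1.14 ± 0.30 at 22 °C (limma adjusted p = 0.00304) and by 1.25 ± 0.29 at 30 °C (adjusted p = 0.000953). Of 12 tested mitochondrial chaperones and proteases, 2 were higher at 30 °C at 24 h, beside 9.93% of all tested genes, namely the prohibitin gene Phb (0.95 ± 0.18, adjusted p = 0.000235) and Clpx (1.03 ± 0.20, adjusted p = 0.000284), the unfolding subunit of the ClpXP protease. Hspa9, the mitochondrial HSP70, did not pass (0.18 ± 0.16, adjusted p = 0.468). The small heat shock protein gene Hspb8, 1 of 2 tested on its list, rose by 24 h by 1.48 ± 0.21 and 1.69 ± 0.20 (adjusted p = 8.31e-07 and 3.21e-08). Of 7 tested heat shock factors and regulators, Hsf2 fell at 4 h by 2.00 ± 0.37 and 1.33 ± 0.35 (adjusted p = 7e-05 and 0.00334), and Hsf1, the main heat-responsive factor, did not pass (-0.61 ± 0.48 and -0.10 ± 0.45, adjusted p = 0.373 and 0.886). Hikeshi, which carries HSP70 into the nucleus, was the 1 gene of the 7 that was higher at 30 °C at 24 h (1.48 ± 0.40, adjusted p = 0.00747), beside 9.93% of all tested genes.

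**Figure D4:**
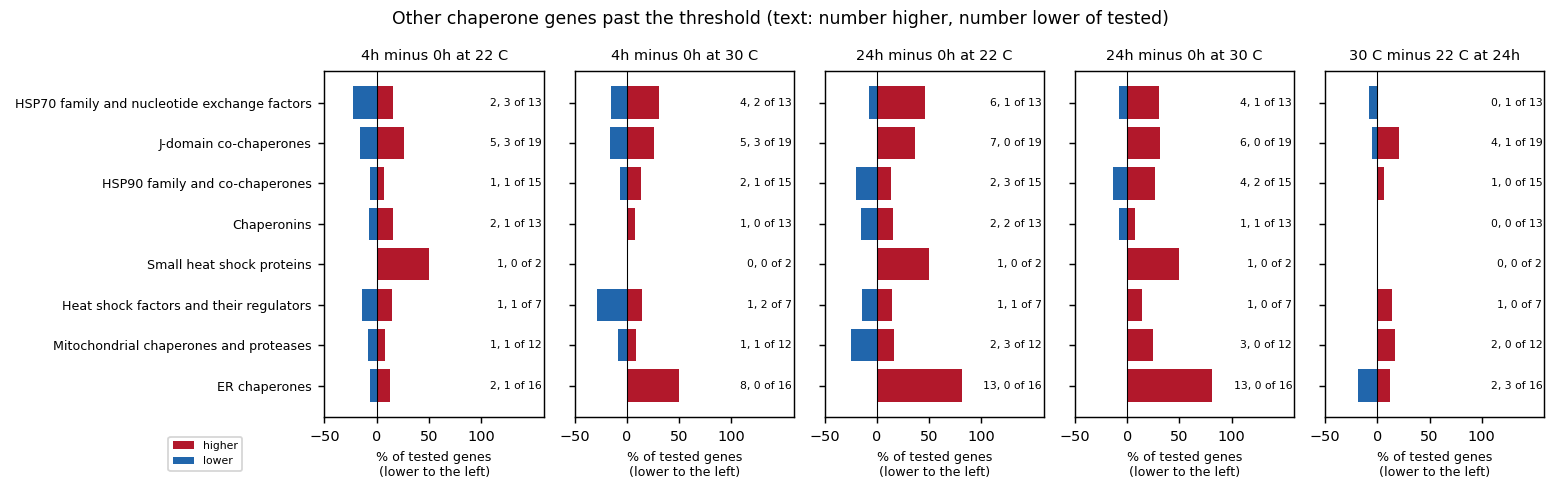
Share of the tested genes of each list past the threshold (x axis, percent, higher to the right in red, lower to the left in blue) in 5 contrasts, with the number higher, the number lower and the number tested as text. The bar of the endoplasmic reticulum list reaches 13 of 16 genes at 24 h at both temperatures.

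Patterns over the 36 libraries differed between the chaperone genes. The non-members most alike in log2 signal were Rsrp1 (r = 0.775), Cacybp (0.763) and Nr5a2 (0.757) for Hspa1b, and F11r (0.814), Bcl3 (0.8003) and Cflar (0.7999) for Hspa8. For Hsp90aa1, Gatad2b (0.689) and Ddx18 (0.631) were among them, and for Hspd1 they were A1bg (0.709), Serpinc1 (0.709) and Dpys (0.706). Among the chaperone genes themselves, after removal of group means, the highest correlations were those of Dnaja1 with Fkbp4 (0.505) and with Hspa1b (0.496), and the lowest was that of Hsph1 with Hsp90aa1 (-0.39). All of these are descriptions over libraries that share their processing and differ in depth.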

How the data were processed

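Liver RNA of 36 samples was sequenced with a CEL-Seq2 protocol adapted to bulk RNA, in which reads start at the poly(A) tail, per the labels' protocols. The tools named are Trimmomatic, a read trimmer, kallisto, which assigns reads to transcripts, and sleuth, which handles kallisto output, per the submitters' processing notes. The authors deposited a signal per gene and sample, named scaled reads per base, and a second signal named TPM. Tool versions, genome build, UMI treatment and scaling: not given in the sources used here. Whole reads could not be recovered, since only 15.0% to 19.2% of the values of a library were whole multiples of its commonest low value, within 0.01 read. Depth was therefore estimated from that value.

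Of 34829 genes, 34406 matched a symbol in GENCODE mouse M21 (GRCm38). The filter kept genes with mean signal of 5 or more, and these were tested on log2(signal + 1) with limma 3.58.1 in R 4.3.3 (lmFit, eBayes with trend, two-sided), with 8 groups in 1 fit, 17 contrasts and Benjamini-Hochberg adjustment within each at a threshold of 0.05. This scale understates changes of low genes. The procedure was tested on simulated data. Alternatives were pseudocount, filter, scaling, the second signal, array weights, a fit of the groups compared alone, a replicate block and leaving out each library. The 10 genes, gene lists and tests were chosen with earlier results of these data known. The rule named the 10 genes throughout, up to 4 genes of smallest p per list and contrast with the list's defining gene, and the 3 most alike non-members of 4 genes. A gene that the rule names is not reported here.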

Additional observations from a re-analysis of the deposited data

Results flagged for a closer look

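For 4 genes the change since 0 h at 24 h differed between 30 °C and 22 °C in the test of that difference itself (limma interaction): by 2.76 for Hspa1b, 2.68 for Hsph1, 1.94 for Fkbp4 and 1.30 for Hspe1, on the log2 scale. Single libraries stood far from the others of their group in 4 of the 80 gene and group combinations examined with Dixon's criterion, and chance flags about 1 in 20. The 22 °C, 0 h, replicate 1 was high for Hspa1b (12.3) and for Hspa1a (1.23, the others being listed at 0). The 30 °C, 0 h, replicate 5 held 2.51 units of Hspa1a, where the others were listed at 0, and both Hspa1a values are under 3 reads. The 30 °C, 12 h, replicate 2 was high for Hsp90aa1 (336).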

How the results depend on the processing

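Of the 153 values (9 genes, 17 contrasts), 50 were past the threshold, 34 of them in every setting, 16 were lost in at least 1 setting, and none of the 50 changed sign. Of the other 103, 14 passed in some setting and 31 took both signs without passing. The 24 h temperature differences and interactions of Hspa1b, Hsph1, Fkbp4 and Hspe1 passed in every setting in which they were tested. With a filter at a mean of 20, only 6 chaperone genes are tested, and the counts past the threshold were 1 instead of 3 (4 h, 22 °C), 1 instead of 2 (4 h, 30 °C), 2 instead of 1 (12 h, 30 °C), 3 instead of 6 (24 h, 30 °C), 3 instead of 5 (12 to 24 h, 30 °C) and 2 instead of 4 (30 °C minus 22 °C, 24 h). The step from 12 to 24 h at 30 °C also gave 3 with a pseudocount of 0.5 or no filter. With the second deposited signal the count was 2 at 12 h, 30 °C, 1 for 12 to 24 h at 22 °C and 1 for the temperature difference at 12 h. With array weights these were 3, 1 and 2, and the 12 h interaction was 1. A pseudocount of 0.5 gave 1 for the temperature difference at 12 h. Upper-quartile rescaling gave 3 instead of 6 for 4 to 12 h at 30 °C, where it moved the median of all genes from -0.03 to 0.21. It moved the median by -0.13 for 4 h at 30 °C and by -0.11 for 4 h at 22 °C. The share of calls that were higher became 55.8% instead of 45.2% (4 to 12 h, 22 °C), 59.6% instead of 40.8% (4 to 12 h, 30 °C), 44.8% instead of 54.9% (4 h, 30 °C) and 38.5% instead of 22.9% (30 °C minus 22 °C, 12 h). The cause of the other moves was not tested.

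Replicate numbers did not pair the samples (median correlation of same-numbered libraries -0.00057 over 118 pairs, 2 over 0.1). A replicate block gave 1 instead of 0 for the temperature difference at 12 h and 1 instead of 0 for the 12 h interaction, both Hsph1. It lost 1 call, the rise of Dnajb1 from 12 to 24 h at 30 °C, which a pseudocount of 0.5 and no filter also ended (adjusted p = 0.0502 to 0.110). A fit of the groups alone lost 7 of the 50 calls and added those of Fkbp4 at 4 h at both temperatures.

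Leaving out 1 library gave 3 to 4, 4 to 6 and 5 to 6 genes past the threshold for 4, 12 and 24 h at 22 °C, and 2 to 3, 1 to 3 and 4 to 6 at 30 °C. The steps gave 6 to 7 and 0 to 1 at 22 °C, and 5 to 6 and 3 to 6 at 30 °C. The temperature differences gave 0 to 0, 0 to 0, 0 to 1 and 4 to 5 at 0, 4, 12 and 24 h, and the interactions 0 to 0, 0 to 1 and 4 to 5. Over all genes, the count for the temperature difference at 0, 4 and 12 h was 44, 18 and 371, against 13, 7 and 251 in a fit of the groups alone 50, 26 and 798 at the most under other settings, and 36 to 51, 4 to 26 and 188 to 590 with 1 library left out, and for the 12 h interaction it was 24 against 3 to 121. Depth limits genes near 3 reads, here Hspa1a throughout and Hspa1b at 22 °C at 12 and 24 h (2 and 3 of 5 libraries under 3 reads). The signal of Hsph1 at 22 °C at 12 h was also low, but its reads could not be counted in this way.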

Other observations

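Hspd1 and Hspe1 lie head to head, and the stretch with alternating GAA and TTC units lies between an annotated start of each. At 24 h Hspe1 differed between temperatures by 0.85 ± 0.19 (limma adjusted p = 0.00116) and Hspd1 by 0.30 ± 0.16 (adjusted p = 0.186). Whether these differ from each other was not tested. After removal of group means their log2 signals correlated by 0.04 over 36 libraries, against 0.57 with group means kept.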
